A study of Mus musculus with 4 samples.

Results

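The RNAs described here are 8 noncoding genes, Malat1, Neat1 and Kcnq1ot1, whose transcripts are kept in the nucleus, and Gas5, Snhg1, Snhg6, Snhg8 and Snhg12, which carry small nucleolar RNAs (snoRNAs) in their introns. They were found by gene symbol among the 28692 genes of the count tables. Of the 8, 5 had a row, namely the 3 nuclear RNAs and the snoRNA hosts Snhg6 and Snhg12, and Gas5, Snhg1 and Snhg8 were not analysed here. The cells came from 4 single-cell RNA sequencing libraries, each from the cortex and hippocampus of 1 male C57BL/6J mouse aged 90 days. Every mouse had received PBS, a saline buffer, by tail vein 24 hours before sacrifice per the labels, while the study's methods give a different interval. The tissue was dissociated mechanically on ice (cold Dounce), and CD45+/CD11b+/CX3CR1+ cells, which include microglia and other myeloid cells, were sorted. All 4 libraries therefore formed 1 group, numbered 1 to 4 only as names, and no untreated or otherwise different group was available for comparison.

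A total of 13002 cells of 13138 barcodes had at least 400 genes and no more than 10% of their UMIs (unique molecular identifiers, which count captured RNA molecules) from mitochondrial genes, with 2576 to 3692 cells and 5841671 to 11267195 UMIs per library. The median cell held 1905 to 2936 UMIs, of which 1.12 to 1.38% were mitochondrial and 7.58 to 8.92% came from ribosomal protein genes. The sort was checked with 9 microglial genes such as Tmem119 and P2ry12, which summed to 38432 ± 490 CPM (UMIs scaled to a total of 1000000, SD, n = 4). Neuronal markers summed to 1.73 CPM and erythroid markers were at 0. Astrocyte markers were at 245 ± 24.7 CPM, oligodendrocyte markers at 54.8 ± 3.91 and endothelial markers at 24.1 ± 3.39 (SD, n = 4), and markers of border macrophages or monocytes ranged from 272 to 1312 CPM, with the highest value in library 4. Immediate early genes, which respond to stimulation within minutes, summed to 1268, 1424 and 1303 CPM in libraries 1 to 3 and to 2959 CPM in library 4, which stood apart from the others. The study's methods state that the sort of the last animal of this experiment was interrupted and repeated. The study's supplement calls that animal sample 4, in a numbering that the sample titles do not use, and it was not matched to a library here. The supplement reports a signature of activation outside the body, which includes immediate early genes, in cells that came almost only from that animal. Of all barcodes, 84 occurred in more than 1 library.

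Malat1 collects in nuclear speckles, bodies rich in splicing factors, and is among the most abundant noncoding RNAs of many tissues. Neat1 is the scaffold of paraspeckles, nuclear bodies that hold back certain proteins and RNAs, and is made as a short polyadenylated form and a long form without a poly(A) tail. Kcnq1ot1 is an unspliced antisense RNA of the paternal allele that silences an imprinted gene cluster in cis. A snoRNA host behaves in the opposite manner, since it is spliced, its introns release snoRNAs that guide the modification of ribosomal and other RNAs, and its exons are exported and usually decay quickly. Many hosts begin with a run of pyrimidines of the kind that opens the mRNAs of ribosomal proteins, so that hosts and ribosomal protein genes can be controlled together.

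On GRCm38, GENCODE M21 places Malat1 at chr19:5795690-5802672 and Neat1 at chr19:5824708-5845478, both on the minus strand and 22035 bases apart. Kcnq1ot1 lies at chr7:143203458-143296549 on the minus strand, antisense to and inside Kcnq1. Snhg6 lies at chr1:9941959-9944118 on the minus strand and holds 1 annotated snoRNA, Snord87. Snhg12 lies at chr4:132308623-132311024 on the plus strand and holds 4, Snora16a, Snora44, Snora61 and Snord99. The strand setting of the counting is not given in the sources used here, so reads of Kcnq1ot1 and Kcnq1, and of Snhg6 and Mcmdc2, which overlaps it on the plus strand, might be confused. The first 30 bases of a transcript of each RNA are shown because the start bears on the comparison with ribosomal protein genes, with the motif CTTTC in capitals where it falls within the first 10 bases.
Malat1-201: caggcattcaggcagcgagagcagagcagc
Neat1-201: aggagttagtgacaaggagggctcgctctt
Kcnq1ot1-201: aggaggaacagttgcctcagcacgtctgcg
Snhg6-203: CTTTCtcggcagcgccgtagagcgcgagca
Snhg12-204: CTTTCtcgcttcatccgcggtccctgtctg
The host transcripts shown were the first listed that hold the motif. It was searched on the transcript strand only and occurred in 1 of 5 annotated Snhg6 transcripts, 3 of 10 of Snhg12, 1 of 4 of Neat1, 0 of 4 of Malat1 and 0 of 1 of Kcnq1ot1. It occurred in 0.911% of all 141767 annotated transcripts and in 29 of 516 transcripts of ribosomal protein genes (5.62%). Counted by gene, 17 of 87 ribosomal protein genes (19.5%) had at least 1 such transcript, a share not comparable with those of transcripts.

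Libraries of this kind are primed from poly(A), so the 3′ ends bear on what could be counted. The last 30 annotated bases are shown with the polyadenylation signal AATAAA in capitals. Whether the RNAs of these cells, Malat1 among them, ended there or carried a poly(A) tail was not measured.
Malat1-201: ttttatgaAATAAAaactaaatatctctca
Neat1-201: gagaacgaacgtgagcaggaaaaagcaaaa
Neat1-202: tttacagcaaAATAAAggtttgagattgaa
Kcnq1ot1-201: taatAATAAAgacattaaaatccacaaaac
Snhg6-203: ctcgtagtaaAATAAActcgtctttcatga
Snhg12-204: gcagttggttcAATAAAgacttttggaaag
The long Neat1-201 (20771 bases) had no signal in this window, and the short Neat1-202 (3004 bases) had it. Runs of at least 10 A, which can also prime such libraries, occurred in 7.18% of annotated transcripts. Kcnq1ot1-201 (93092 bases) held 10 such runs, the longest of 41 bases, and Neat1-201, Neat1-202, Snhg6-203 and Snhg12-204 held none. Malat1-201 held 1 run of 12 A near its 3′ end, from base 6674 of 6983, at chr19:5795978-5796007 with its flanks, in capitals here.
Malat1-201: ctagctttAAAAAAAAAAAAgcaaaagacg
The counts do not tell which end or run of a gene a molecule was primed from.

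Malat1 was the second most abundant of all genes. It took 57968, 53603, 55785 and 53194 CPM in libraries 1 to 4, which is 5.80, 5.36, 5.58 and 5.32% of all UMIs. The mean was 55138 ± 2203 CPM (SD, n = 4), and no library stood apart by Dixon's range test on log2(CPM + 1), with a gap of 0.447 of the range, under the 95% critical value for 4 samples. Every kept cell held a Malat1 UMI except 1 cell of library 4. The other 4 RNAs were rare. Kcnq1ot1 was counted at 73.4, 78.2, 75.3 and 65.1 CPM (73.0 ± 5.62). Neat1 reached 37.6, 37.8 and 41.6 CPM in libraries 1 to 3 and 60.7 CPM in library 4 (44.4 ± 10.99). The first 3 Neat1 values lay close together and the fourth was 1.56 times their mean. Among the hosts, Snhg6 was at 30.9, 26.7, 29.96 and 29.3 CPM (29.2 ± 1.79) and Snhg12 at 24.2, 22.6, 24.1 and 30.4 CPM (25.4 ± 3.47).

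None of the 5 RNAs had a library apart by the range test, which marked 4.62% of the 7656 genes with a mean of at least 10 CPM. Neat1 came nearest, with library 4 as the highest and a gap of 0.788 of the range, and Snhg12 followed at 0.770, also with library 4 highest. The SD of log2 Neat1 between libraries, 0.32, was larger than that of 97.2% of the 6093 genes with means of 10 to 100 CPM, while the corresponding shares were 80.4% for Snhg12, 46.8% for Kcnq1ot1 and 29.2% for Snhg6. The Neat1 call turned on scaling, since library 4 passed the critical value with TMM-scaled CPM (0.831) and without the cells that carried border markers (0.830). The ratio of Neat1 to Kcnq1ot1 was 0.512, 0.484 and 0.552 in libraries 1 to 3 and 0.932 in library 4, which stood apart (0.847 of the range). Library 4 also held the highest immediate early gene and border marker sums, and their part in these values was not tested.

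**Figure D1:**
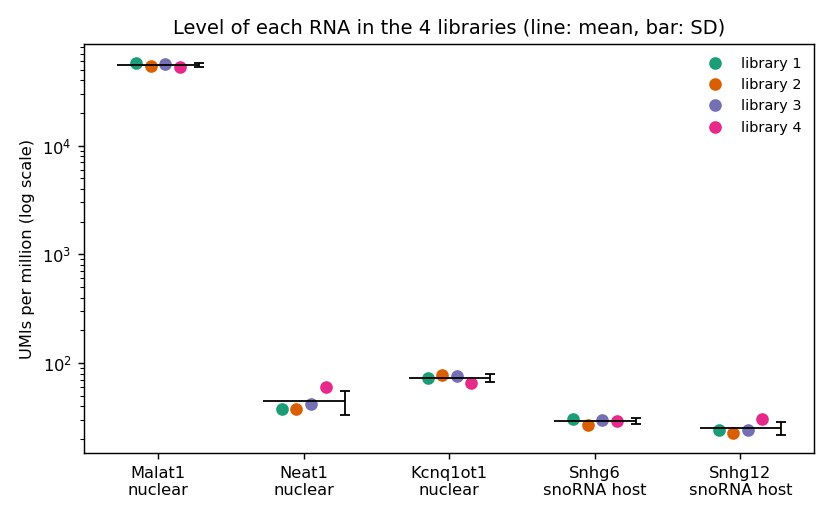
Level of each of the 5 RNAs in the 4 libraries, in CPM on a log axis, with a point per library, a line for the mean and a bar for the SD. Malat1 lies between 53194 and 57968, the other RNAs between 22.6 and 78.2, and library 4 holds the highest Neat1 and Snhg12 values and the lowest Kcnq1ot1 value.

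The nuclear RNAs together outnumbered the hosts by a wide margin, nearly all of it Malat1. Summed CPM were 58079, 53719, 55902 and 53320 for the nuclear RNAs and 55.1, 49.3, 54.1 and 59.8 for Snhg6 and Snhg12. The ratio was 1017 ± 86.3 (n = 4), and Malat1 made up 99.8% of the nuclear sum. With Malat1 left out, the nuclear sum of 111 to 126 CPM was 2.01, 2.35, 2.16 and 2.10 times the host sum (2.16 ± 0.143), above it in 4 of 4 libraries. That ratio depends on the genes counted, since the host sum lacks Gas5, Snhg1 and Snhg8. The other listed hosts, given below, summed to 111 ± 9.06 CPM and the other listed nuclear RNAs to 22.5 ± 2.30 CPM. The order of single RNAs depended on the scale. Per kilobase of annotated exon, Malat1 was at 7896 ± 315 CPM, Snhg6 at 25.5 ± 1.56, Snhg12 at 10.6 ± 1.44, Neat1 at 2.14 ± 0.529 and Kcnq1ot1 at 0.784 ± 0.0604. On that scale the hosts lay above Neat1 and Kcnq1ot1, and the ranges of neighbours in this order did not overlap between libraries. The place of Neat1 depended on the form used, here the long form of 20771 bases. Divided by the 3004 bases of the short polyadenylated form, its mean would lie above that of Snhg12 and below that of Snhg6. The hosts are there still divided by all annotated exons, 2402 bases for Snhg12. Divided by the 1416 bases of Snhg12-204 instead, the Snhg12 mean would lie above that of Neat1 by its short form. Because 3′ libraries count ends and not lengths, CPM and CPM per kilobase rank long RNAs such as the 93.092 kb Kcnq1ot1 differently.

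Other genes of both classes were taken from lists. Of 12 other snoRNA hosts 4 had a row. Snhg20 was counted at 78.2 ± 4.09 CPM, Snhg9 at 17.5 ± 6.86 and Epb41l4aos at 15.5 ± 1.65, and Snhg18 had 0 UMIs in every library, where the limit of 3 UMIs corresponds to 0.266 to 0.514 CPM. Of 10 other nuclear long noncoding RNAs 7 had a row. Mir142hg, the precursor of a microRNA of blood cells, was at 14.8 ± 1.70 CPM and Pvt1 at 7.56 ± 1.52 CPM. Meg3, an imprinted RNA abundant in neurons, had 2 UMIs and Miat had 1 UMI in all libraries together.

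When each cell was thinned to 1000 UMIs, which kept 12737 cells and left out 23 to 85 shallower cells per library, the median cell gave Malat1 5.8, 5.4, 5.6 and 5.3% of its UMIs in libraries 1 to 4. The middle 50% of cells lay between 4.7 and 7.0% in library 1 and between 4.2 and 6.6% in library 4. The ratio of the 95th to the 5th percentile was 2.74, 2.83, 2.81 and 3.03. Before thinning, 8, 1, 4 and 11 cells held under 1% Malat1, and 3, 2, 0 and 3 cells held more than 15%.

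The variance of Malat1 was 5.74 ± 0.306 times its mean of 57.1 UMIs per thinned cell, the second highest ratio of 263 genes with a mean of at least 0.5 UMI, after Apoe (22.8) and before Cst3 (5.24). This ratio grows with the mean, and once counting noise was removed the coefficient of variation of Malat1 was 28.8%, rank 119 of 263 and close to the median of 28.01%. The other RNAs were too sparse to describe per cell. In thinned cells, a UMI was found in 4.40% ± 1.23 of cells for Neat1, 6.64% ± 0.443 for Kcnq1ot1, 2.79% ± 0.204 for Snhg6 and 2.51% ± 0.449 for Snhg12, and the ratio of variance to mean was 1.06, 1.11, 1.01 and 1.04, near the value of 1 that counting noise gives. Without thinning the shares were 9.75, 15.02, 6.97 and 6.14%. No cell type known to lack these RNAs was present, so the share that free RNA alone would give could not be measured.

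**Figure D2:**
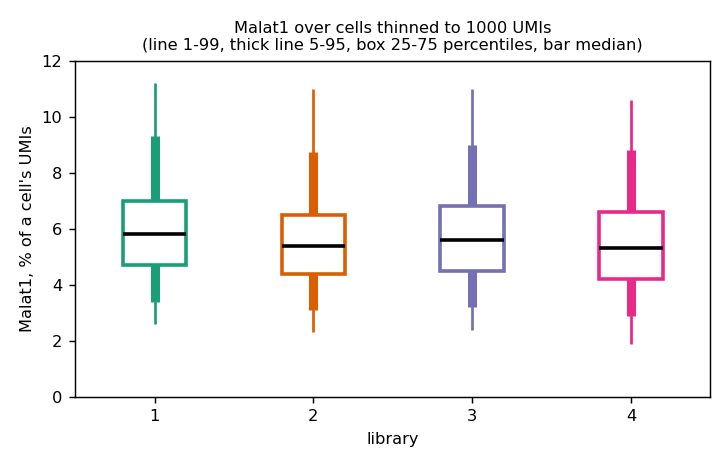
Share of Malat1 in the UMIs of single cells thinned to 1000 UMIs, by library, with percentiles 1 to 99 as a thin line, 5 to 95 as a thick line, 25 to 75 as a box and the median as a bar. The medians lie between 5.3 and 5.8% and the 4 distributions cover nearly the same range.

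For correlations over cells, the share of Malat1 was taken among UMIs outside mitochondrial and ribosomal protein genes. It had Spearman correlations with the mitochondrial share of all UMIs of -0.15 to -0.11 in the 4 libraries (mean -0.14). With the ribosomal protein share they were -0.20 to -0.14 (mean -0.17). The cells of a library are not independent, so the coefficients only describe the libraries. In thinned cells the means were -0.11 and -0.15. The correlation of the Malat1 share with total UMIs, before thinning, was larger, at -0.44 to -0.32 (mean -0.38). Among 617 genes with a UMI in at least 20% of thinned cells, those with Pearson correlations most like Malat1, averaged over the 4 libraries, were Rrbp1 (0.12), Zeb2 (0.11) and Cx3cr1 (0.11), and the lowest were Tmsb4x (-0.25) and Cst3 (-0.23). All of these are weak. Thinned cells with a Kcnq1ot1 UMI held 1.49 to 2.95 more Malat1 UMIs on average than cells without one, in 4 of 4 libraries. For Neat1 the difference was -0.235 UMIs in library 1 and 2.39 to 4.43 UMIs in the others.

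To relate the RNAs to the mitochondrial share, the 25% of cells with the highest share and the 25% with the lowest were compared within each library, after grouping cells into 10 bins of total UMIs so that both classes had the same depth (mean of the library medians 2456 UMIs each). The median mitochondrial share was 1.93% in mitochondria-rich and 0.693% in mitochondria-poor cells. Counts were summed per class and library. Mitochondrial and ribosomal protein genes were left out of both the counts and the totals, and levels in this and the next comparison are CPM of the remaining UMIs. Malat1 was at 62701, 57712, 59415 and 57090 in mitochondria-rich cells and at 67322, 61813, 63934 and 60181 in mitochondria-poor cells of libraries 1 to 4. It was lower in the rich cells of each library, although the values of the 2 classes overlapped between libraries.

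By edgeR's quasi-likelihood test with the library as a block, Malat1 fell by 0.075 on the log2 scale (SE 0.0094, adjusted p = 1.1e-12, fold 0.949). This estimate includes TMM scaling, and with no normalization factors the fall was 0.096. The fall was small beside the differences between libraries, and without the block it was not called (adjusted p = 0.908). Malat1 was the 1 of 5 RNAs called lower, where 0.689% of the 9729 genes tested were, and 0 of 5 were called higher, where 2.27% were. The size of the fall was ordinary, since 31.5% of the genes tested had a lower log2 difference than Malat1. Over all genes 221 were higher and 67 lower, or 182 and 103 with no normalization factors. The log2 differences were 0.14 (SE 0.107) for Neat1, -0.048 (SE 0.0852) for Kcnq1ot1, 0.015 (SE 0.134) for Snhg6 and -0.11 (SE 0.142) for Snhg12, with adjusted p from 0.688 to 0.980. The values in single libraries lay on both sides of 0 for each of these 4 RNAs. The genes with the largest differences were elsewhere. Apoe, a lipid carrier, was higher by 1.78 on the log2 scale, the interferon-induced Ifitm3 by 1.61 and the lysozyme gene Lyz2 by 1.27, while the cyclin gene Ccnd1 fell by 0.42. Over 5 equal classes of cells from the lowest to the highest mitochondrial share, Malat1 was at 63481, 61840, 61395, 60203 and 59175 CPM on average.

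The same comparison was made by the ribosomal protein share of a cell. The median ribosomal protein share was 10.7% in ribosomal-protein-rich and 6.28% in ribosomal-protein-poor cells. The 2 comparisons are not independent, since the mitochondrial and ribosomal protein shares had Spearman correlations of 0.25 to 0.31 over cells (mean 0.28). The median mitochondrial share was 1.43% in ribosomal-protein-rich and 1.06% in ribosomal-protein-poor cells. Malat1 was again lower in the rich cells of all 4 libraries, at 62441, 58413, 60115 and 56309 against 67524, 61266, 63313 and 60848 CPM, with overlap between libraries. It fell by 0.091 on the log2 scale (edgeR, SE 0.0195, adjusted p = 7.2e-04, fold 0.939), and was the 1 of 5 RNAs called lower, where 2.95% of the 9735 genes tested were. Of these genes, 31.4% had a lower log2 difference than Malat1. Without the library block it was not called (adjusted p = 0.447).

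Neat1 went the other way. It was at 65.2, 44.8, 54.6 and 83.99 CPM in ribosomal-protein-rich cells and at 30.4, 41.3, 39.1 and 63.4 in poor cells of libraries 1 to 4, higher in 4 of 4 libraries, by the most in library 1 and the least in library 2. The log2 difference was 0.47 (edgeR, SE 0.113, adjusted p = 0.0034), and Neat1 was the 1 of 5 RNAs called higher, where 4.71% of genes were. Over 5 equal classes, Neat1 averaged 67.8 CPM in the class with the highest ribosomal protein share and 43.8, 44.02, 45.5 and 46.2 CPM in the others, from the lowest share upward. The call was not stable. Ribosomal-protein-rich classes held 72 of the 86 cells with border macrophage or monocyte markers and poor classes held 1, and without those cells the difference was 0.30 (adjusted p = 0.129). It was also lost in cells thinned to 1000 UMIs (0.48, adjusted p = 0.082), with DESeq2 (0.51, adjusted p = 0.366), without the block (0.49, adjusted p = 0.284), and without library 1 (0.32, adjusted p = 0.088) or library 3 (0.47, adjusted p = 0.061). Immediate early genes averaged 1678 CPM in rich and 1750 CPM in poor cells.

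The snoRNA hosts did not pass the test with the ribosomal protein share. Snhg6 was at 34.2, 29.3, 30.4 and 47.1 CPM in rich and at 34.7, 26.2, 32.5 and 25.5 in poor cells, a log2 difference of 0.29 (edgeR, SE 0.144, adjusted p = 0.287) that was 0.038 without library 4. Snhg12 was at 21.7, 28.1, 29.6 and 40.0 in rich and at 31.0, 23.1, 26.6 and 30.7 in poor cells (0.14, SE 0.147, adjusted p = 0.721). Kcnq1ot1 differed by 0.10 (SE 0.0829, adjusted p = 0.607). Each host had 33 to 93 UMIs per class and library. Of the 3 other hosts tested, 1 was called higher, Snhg20 (0.25, SE 0.0815, adjusted p = 0.048), where 4.71% of genes were. That call was lost in most of the alternatives run, among them DESeq2, no normalization factors (adjusted p = 0.0502), cells thinned to 1000 UMIs (0.032, adjusted p = 0.947), no library block (adjusted p = 0.207) and leaving out library 1, 3 or 4 (adjusted p = 0.116, 0.178 and 0.228). The median over the 3 hosts was 0.25, which is the value of Snhg20 itself, against -0.0062 over all genes. Of the 2 other nuclear RNAs tested, 0 were called. The largest rises were those of MHC class II genes, which are among the markers of border cells, with H2-Aa at 5.30, H2-Eb1 at 5.20 and Cd74 at 4.84 on the log2 scale, and the largest falls were those of Upk1b (-0.63), Ccnd1 (-0.49) and the microglial gene Fcrls (-0.47).

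**Figure D3:**
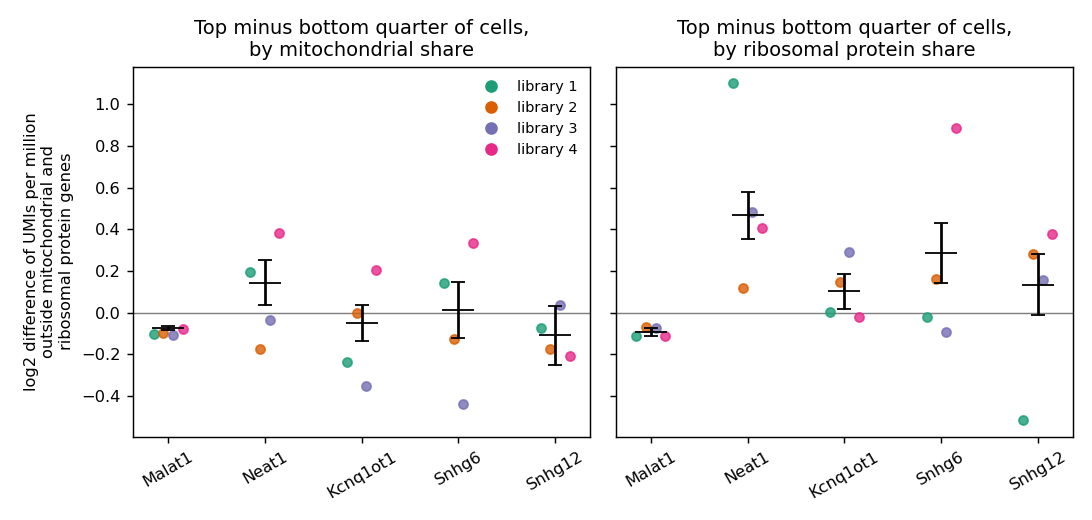
Log2 difference of each RNA between the 25% of cells with the highest and the 25% with the lowest values, by mitochondrial share (left) and by ribosomal protein share (right), with a point per library, unscaled, and the edgeR estimate with its SE as a bar. Malat1 lies below 0 in all 4 libraries on both sides, and Neat1 lies above 0 in all 4 libraries on the right only.

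The cells with border markers were therefore examined on their own, in a test added after these values had been seen. They were the 86 cells, 11 to 45 per library and 45 in library 4, with at least 4 of 13 markers such as Mrc1, Pf4 and Ccr2. The 13 include H2-Aa, H2-Ab1, H2-Eb1 and Cd74, so a cell could pass on these MHC class II genes alone. The class is a range and not a cell type, and 42 cells lay at the limit. Their median total was 3793 UMIs, against 2427 in cells with neither border nor interferon markers, and their ribosomal protein share was 15.6% against 8.54%. Microglial markers summed to 18096 CPM in them and to 38762 CPM in the latter cells, and doublets were not removed. With the 13 markers left out of the counts, Neat1 was at 248, 128, 175 and 245 CPM in these cells of libraries 1 to 4 and at 36.6, 36.8, 39.5 and 57.2 in all other cells. The 2 groups did not overlap. The log2 difference was 2.08 (edgeR, SE 0.263, adjusted p = 4.1e-13, fold 4.23) from 82 Neat1 UMIs in the border marker cells, and Neat1 was the 1 of 5 RNAs called higher, where 3.3% of the 10622 genes tested were. It was called under each of the 9 alternatives run, at 1.99 to 2.21, while the median over all genes tested was -0.22.

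Malat1 was lower in the same cells in 4 of 4 libraries, at 42079, 49921, 49934 and 38642 against 58067, 53659, 55907 and 53548 CPM, but did not pass the test (-0.40, SE 0.405, adjusted p = 0.692). Kcnq1ot1 had 34 UMIs in these cells, Snhg6 had 11 and Snhg12 had 9, with log2 differences of 0.10, -0.17 and -0.31 and adjusted p from 0.862 to 0.931, and 0 of 5 RNAs were called lower, where 2.29% of genes were. Library 4 kept the highest Neat1 level outside border and interferon marker cells, 57.4 CPM against 36.8, 36.8 and 39.2 CPM. In the 77 cells with at least 3 of 9 interferon-responsive markers, Neat1 was at 37.8 CPM (95% exact Poisson interval 16.3 to 74.6, from 8 UMIs).

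**Figure D4:**
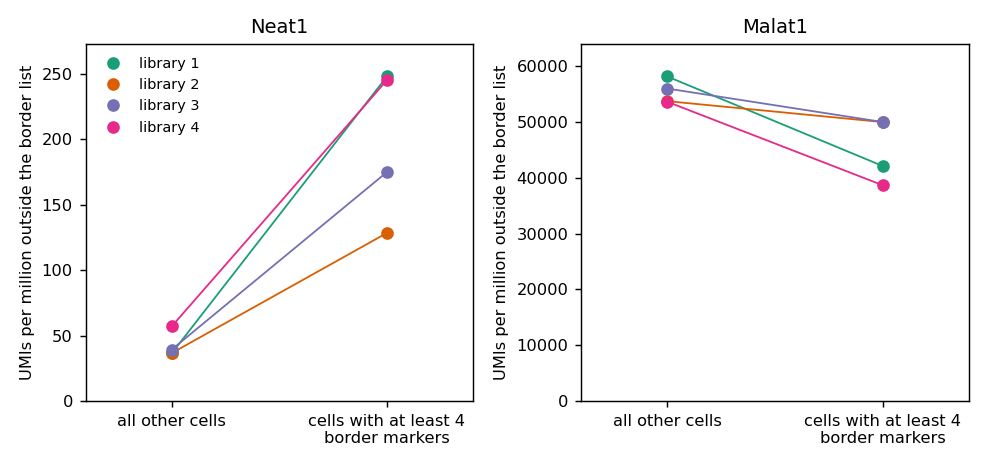
Neat1 (left) and Malat1 (right) in cells with at least 4 border markers and in all other cells, in CPM outside the border list, with a line per library. Neat1 rises from at most 57.2 to at least 128 in each library, and Malat1 is lower in each library.

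Malat1 also differed between deep and shallow cells. In a further test added after seeing the data, the 25% of cells with the most UMIs (mean of the library medians 3310.5) were compared with the 25% with the fewest (1726). Malat1 was at 56484, 52334, 54223 and 51072 CPM in the deepest cells and at 78164, 73590, 74408 and 69594 in the shallowest cells, with no overlap. It fell by 0.45 on the log2 scale (edgeR, SE 0.0169, adjusted p = 2.2e-86), and Malat1 and Neat1 were the 2 of 5 RNAs called lower, where 6.67% of the 9786 genes tested were and 8.05% were called higher. Neat1 fell by 0.31 (SE 0.112, adjusted p = 0.038), a call that was lost without library 3 (-0.26, adjusted p = 0.152) or library 4 (-0.19, adjusted p = 0.469) and without the block (-0.33, adjusted p = 0.421), and DESeq2 gave it no adjusted p (unadjusted p = 0.099). Kcnq1ot1 (-0.21), Snhg6 (-0.094) and Snhg12 (-0.12) were not called, with adjusted p of 0.115, 0.744 and 0.686. Over 5 equal classes by total UMIs Malat1 averaged 74905, 67938, 62379, 58424 and 52941 CPM. Both Malat1 and the UMIs of the denominator are part of the total that set these classes, so the levels are not independent of the classes. How far this raised or lowered the difference was not tested.

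**Figure D5:**
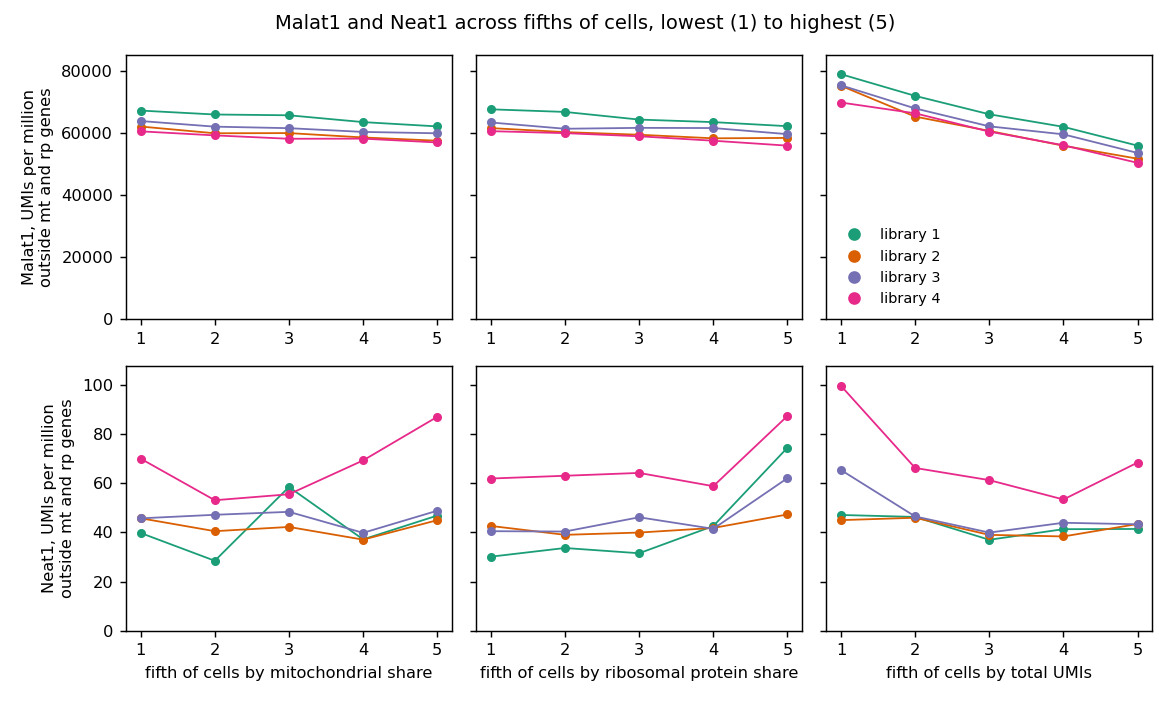
Malat1 (top) and Neat1 (bottom) in 5 equal classes of cells by mitochondrial share, ribosomal protein share and total UMIs, in CPM outside mitochondrial and ribosomal protein genes, with a line per library and axes from 0. Malat1 averages 74905 in the lowest and 52941 in the highest class by total UMIs, and Neat1 is highest in the top class by ribosomal protein share in all 4 libraries.

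Because library 4 held the highest levels of both Neat1 and immediate early genes, cells rich and poor in those 10 genes were compared within libraries in the same way, again as an added test, with the 10 genes left out of the counts. Neat1 was at 43.5, 51.2, 49.2 and 79.2 CPM in rich and at 38.0, 32.3, 34.1 and 54.6 in poor cells, higher in 4 of 4 libraries. The log2 difference was 0.49 (edgeR, SE 0.105, adjusted p = 0.0066). Malat1 rose by 0.075 (SE 0.0179, adjusted p = 0.030), also in 4 of 4 libraries, and these were the 2 of 5 RNAs called higher, where 0.265% of the 9826 genes tested were and 0.132% were called lower. Of the genes tested, 98.3% had a lower log2 difference than Neat1 and 70.9% a lower one than Malat1. Kcnq1ot1, Snhg6 and Snhg12 differed by -0.13, 0.090 and 0.11 and were not called. Neat1 was not called without library 2 (0.43, adjusted p = 0.124) or library 4 (0.47, adjusted p = 0.151), and Malat1 was not called without library 2, 3 or 4 (adjusted p = 0.295, 0.073 and 0.364). Neither was called with DESeq2 or without the library block, and in cells thinned to 1000 UMIs Neat1 differed by 0.11 (adjusted p = 0.978) and Malat1 by 0.072 (adjusted p = 0.119), also not called.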

How the data were processed

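The deposited values were raw UMI counts per gene and cell, 1 matrix for each of 4 libraries, made by the authors with version 2 of the 10x 3′ kit and Cell Ranger 2.2.0, using the mm10 build (GRCm38) and Ensembl genes of selected types. Cells had been called, and nothing else was filtered or normalised. Depth was 5867333 to 11275195 UMIs per library. A cell needed 400 or more genes and no more than 10% of UMIs from mitochondrial genes, and doublets were not removed. Counts were summed per library, or per library and class of cells, and given as CPM. In comparisons of cells by mitochondrial share, ribosomal protein share or depth, the totals left out 13 mitochondrial and 103 ribosomal protein genes and pseudogenes.

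Libraries were compared with Dixon's range test (95% critical value for 4 samples) on log2(CPM + 1). Classes of cells were compared with edgeR 4.0.16 (quasi-likelihood test, TMM, library as replicate block, since both classes came from the same mouse) over all genes with at least 50 UMIs, and called at a Benjamini-Hochberg adjusted p under 0.05. All adjusted p-values are over all genes tested. DESeq2 1.42.0 was an alternative. An SE is the log2 difference divided by the square root of the F statistic. The fits were first run on simulated counts, with the same dispersion set for all genes and not taken from these data. That run does not show whether the p-values hold for the variation in these libraries. Sequences and gene models are from GENCODE M21. Exact Poisson intervals for sums and the floor of 3 UMIs cover counting error only. In the edgeR fits with the library block, level differences between mice are removed. Their p-values rest on how the within-library differences varied over 4 mice, with each gene's variance drawn toward a trend over all genes tested. They are therefore not a measure of the spread between 4 mice alone. Other settings tried were other scalings, filters, cell classes, thinned cells and leaving out each library.

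Named were all members, the 3 genes most correlated with Malat1 and the lowest, up to 4 genes of each list of further noncoding RNAs, and the 3 largest rises and falls in the mitochondrial and ribosomal comparisons, of which some are given. The members and lists were chosen with earlier results of these data known. The comparisons by border markers, immediate early genes and total UMIs were added after seeing the data.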

Additional observations from a re-analysis of the deposited data

Results flagged for a closer look

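Each value with 4 libraries was checked for 1 library that lay apart from the others, and 3 of 57 values were marked. About 1 in 20 such checks passes when no library differs, but these checks share data and are not independent. What set the marked values apart was not tested. The ratio of Neat1 to Kcnq1ot1 was 0.932 in library 4, against 0.484 to 0.552 in the others. On single levels, Neat1 was highest and Kcnq1ot1 lowest in the same library, and neither was apart alone. The summed immediate early genes were at 2959 CPM in library 4, against 1268 to 1424 CPM in the others. The share of thinned cells with a Malat1 UMI was 99.97% in library 1 and 100% in the others, a difference of 1 cell.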

How the results depend on the processing

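Of 55 recomputed mean levels of the 5 RNAs, 52 stayed within 1 SD of the reported value, and Malat1, Kcnq1ot1 and Snhg6 rose past it when mitochondrial and ribosomal protein UMIs left the denominator. The ratios of nuclear RNAs to hosts stayed within 1 SD throughout. The number of RNAs with 1 library apart was 0, and 1 with TMM-scaled CPM and without border marker cells (Neat1 in both) and with at least 1000 genes per cell (Kcnq1ot1). The ratio of variance to mean of Malat1 was 7.98 at 2000 UMIs and 17.4 without thinning, as it grows with the mean.

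Of 283 recomputed log2 differences of the RNAs, 240 kept their direction and their side of the threshold. Malat1 in mitochondria-rich and ribosomal-protein-rich cells kept its direction throughout and lost its call only without the replicate block and when a change of at least 1.5-fold was required. Kcnq1ot1 was called lower in the deepest cells without library 1 (-0.36). None of the differences that turned direction was called in the reported test or the alternative. Neat1 by mitochondrial share was -0.17 in thinned cells, -0.019 without border marker cells, -0.053 without cells with 3 border markers and -0.0079 to 0.26 with each library left out. Kcnq1ot1 by mitochondrial share was 0.0044 with classes of 33% of cells and -0.13 to 0.022 with each library left out, and -0.17 in thinned cells by ribosomal protein share. Snhg6 by mitochondrial share was -0.0047 with no normalization factors and -0.11 to 0.12 with each library left out. With each library left out, the range in border marker cells was -0.14 to 0.25 for Kcnq1ot1, -0.33 to 0.050 for Snhg6 and -0.65 to 0.16 for Snhg12, the range by immediate early genes was -0.039 to 0.28 for Snhg12, and the range between deep and shallow cells was -0.18 to 0.043 for Snhg6 and -0.25 to 0.059 for Snhg12.

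Counts of genes called depended on the settings, and the cause was not tested. By mitochondrial share, 67 genes were higher and 20 lower with DESeq2, 57 and 7 in thinned cells, 56 and 4 at 1.5-fold, and 103 lower with no normalization factors. Leaving out a library gave 140 to 172 higher and 30 to 48 lower, with 140 without library 4, and 37 and 30 lower without libraries 3 and 4. By ribosomal protein share, 180 were higher and 65 lower with DESeq2, 291 and 140 in thinned cells, 152 and 22 at 1.5-fold, 186 lower with at least 1000 genes per cell, and 321 to 403 higher and 164 to 222 lower with a library left out, fewest lower without library 3. By border markers, 77 were lower with DESeq2, and leaving out a library gave 103 to 315 higher and 45 to 224 lower, with 201 and 75 without library 3 and 103 and 45 without library 4. By immediate early genes, 1 was higher and 1 lower with DESeq2, 12 and 4 in thinned cells, 40 higher without border marker cells, and 12 to 32 higher and 5 to 15 lower with a library left out, with 12 higher without library 4 and 5 lower without library 2. By total UMIs, 321 were higher and 166 lower with DESeq2, and 406 to 530 lower with a library left out, fewest without library 2.

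Without the replicate block, edgeR called 9 higher and 0 lower by mitochondrial share (558 genes at an unadjusted p under 0.05), 202 and 38 by ribosomal protein share, 0 and 0 by immediate early genes (324 at an unadjusted p under 0.05), and 263 and 147 by total UMIs. At 841 to 2425 UMIs in all cells, the rarer RNAs gave SEs of 0.0829 to 0.151 by mitochondrial share, ribosomal protein share and depth.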
